A study of Mus musculus with 14 samples.

Results

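The epithelium of mice whose myeloid cells carry the Lyz2-cre recombinase was compared with that of mice without it, in 8 of the 14 sequenced libraries, taken by their labels as sorted epithelial cells. All 8 libraries hold colon epithelial cells sorted as negative for CD45 and positive for EpCAM and for CD44. The 4 control libraries (wt, mice 2, 4, 6 and 7) are Tsc2fl/fl, with both copies of Tsc2 floxed and no recombinase. The 4 others (cre, mice 5, 8, 9 and 10) are Tsc2fl/fl Lyz2cre/+, with the same floxed gene and 1 recombinase allele in the Lyz2 locus. The labels name no treatment. The cre libraries came from 1 female and 3 males, the wt libraries from 2 females and 2 males. Mice with Lyz2cre but unfloxed Tsc2 were not among the groups. An effect of losing Tsc2 and an effect of the cre allele therefore cannot be told apart. The other 6 libraries, of colon lamina propria macrophages (3 wt and 3 cre), were used here to tell macrophage transcripts from epithelial ones.

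Tsc2 encodes tuberin, which together with hamartin restrains the kinase complex mTORC1, a driver of protein synthesis, glycolysis and mitochondrial activity. The Lyz2 promoter is active in macrophages and granulocytes, so in this model the gene is meant to be lost from cells that lie beneath the epithelium and to stay intact in the epithelium itself. Colon epithelium renews from stem cells at the crypt base, whose Wnt-driven genes include the sort antigen CD44, and matures into absorptive colonocytes, mucus-making goblet cells, hormone-making enteroendocrine cells and chemosensory tuft cells.

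Each epithelial library held between 7910342 and 9364551 counts. Epithelial markers were abundant: Epcam stood at 384 to 675 CPM and the mucin gene Muc2 at 2440 to 5425 CPM, where CPM is counts scaled to library size. Macrophage transcripts were present at trace level, and all 28 genes of a macrophage list had reads in at least 1 epithelial library. Their median level, as a share of that in sorted macrophages of the same genotype, was 0.511, 0.405, 0.933 and 0.843% in wt libraries 2, 4, 6 and 7, and 0.168, 0.417, 0.214 and 0.225% in cre libraries 5, 8, 9 and 10. Nuclear ribosomal RNA took 18.5 to 31.8% of wt counts and 26.7% in cre 8, against 7.38 to 10.6% in the other 3 cre libraries. Mitochondrial genes took 11.6 to 18.1% of wt counts and 10.4 to 10.7% of cre counts. By ribosomal share cre 8 and wt 6 thus lay highest in their groups. By mitochondrial share wt 7 was the lowest wt library (11.6%) and cre 8 lay near the other cre libraries. For macrophage transcripts wt 7 lay near wt 6. On the first principal component of expression, which held 35.5% of the variance, wt 6 lay farthest out, at 44.24. Library cre 8 lay at -3.05, between the other cre libraries (-25.95 to -19.13) and the other wt libraries (5.53 to 12.74). It was nearer to wt 4, at 5.53, than to any other cre library. The part of these library differences in the genotype results was not tested beyond the fits given beside them.

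**Figure D1:**
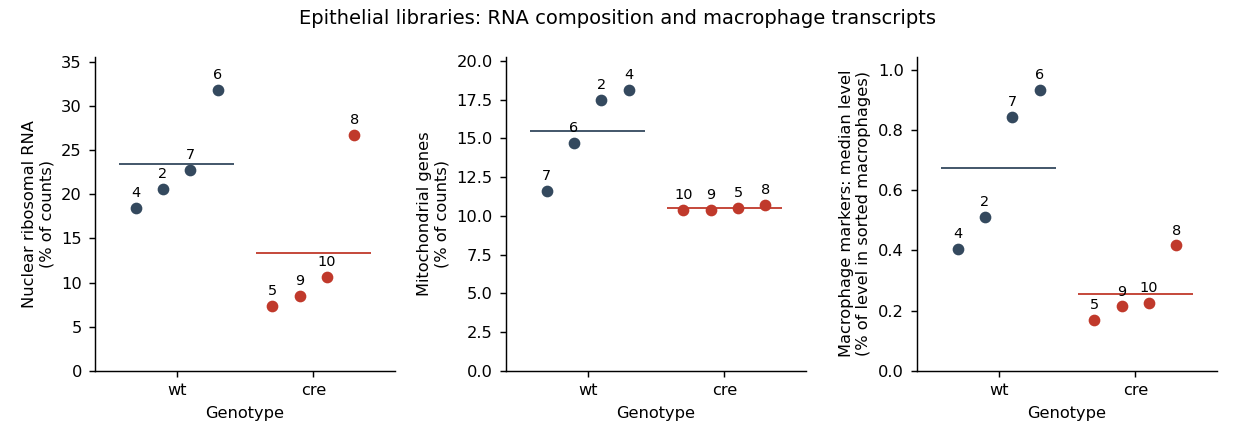
Composition of the 8 epithelial libraries, as the share of counts from nuclear ribosomal RNA (left, %), the share from mitochondrial genes (middle, %) and the median level of macrophage markers relative to sorted macrophages of the same genotype (right, %). Points are libraries with their mouse number and lines are group means. Library cre 8 lies with the wt libraries in the left panel at 26.7%, and the mitochondrial shares of the groups do not overlap.

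Tsc2 itself did not pass the test in epithelium. It stood at 54.8, 50.4, 49.1 and 53.8 CPM in wt libraries 2, 4, 6 and 7 and at 60.4, 58.2, 52.2 and 59.2 CPM in cre libraries 5, 8, 9 and 10. The ranges overlapped, and the log2 value of 0.14 (SE 0.11, edgeR adjusted p = 0.414) did not pass. Reads from undeleted exons count toward the gene too, which limits what this level can show.

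Across the epithelium the genotype went with many small differences. Of 13553 genes tested with edgeR's quasi-likelihood test, 1243 passed an adjusted p under 0.05 (9.17%), of which 765 were higher in cre (5.64%) and 478 lower (3.53%). In bulk samples, a smaller share of one cell type and less RNA per cell cannot be told apart, and this holds for every gene below. Rises were shallow, with a median log2 change of 0.51 among those called, and 17 of them reached 2-fold. Falls were fewer and deeper, with a median of -0.77, and 108 of them reached 2-fold. In 708 of the 765 rises and 391 of the 478 falls, no cre library overlapped any wt library, a separation that the test itself favours. Over all 13553 genes every cre library lay above every wt library in 1344 and below in 905. The genes that rose and fell also differed in build. The median transcript length was 1941 bases for those higher and 4915 for those lower, against 2904 for all tested, and the median GC content was 53.9% and 43.6%, against 49.6%. After a trend on GC content and length was removed from each library, 489 genes were higher and 140 lower. On the deposited FPKM, with 1 added before the log, 1093 were higher and 233 lower, and the median over all genes moved from -0.051 to 0.058 on the log2 scale.

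How many genes passed rested on single libraries. Without cre 9 the count fell to 178, without cre 5 to 318, without cre 10 to 548 and without wt 2 to 682. Without cre 8 it rose to 1947, and without both cre 8 and wt 6, an alternative chosen after seeing the data, to 2359. In males alone (3 against 2) 5 genes passed. With the ribosomal RNA share as a covariate 3 genes passed, with the mitochondrial share 3 and with the summed macrophage markers 55. All 1243 genes kept their sign with the ribosomal share in the model. The median log2 change there was 0.809 times the original and the SE 1.17 times. These genes were chosen from the same libraries, which makes a kept sign likely in any such refit. The mitochondrial share does not overlap between the groups. With it in the model 1241 genes kept their sign, at 1.02 times the log2 change and 1.71 times the SE. A core of 173 genes (1.28% of those tested) passed in the full fit and in each of the 8 fits without 1 library, 123 of them higher and 50 lower. The genes described first below are from that core unless stated otherwise.

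Genes that are macrophage-enriched, and so could be carried over with macrophage RNA, were kept apart. They were set as genes at least 8-fold higher in macrophage than in epithelial libraries with an adjusted p under 0.05, which took 2582 of 16375 genes (15.8%). Of the 594 tested in epithelium, 9 were higher in cre and 26 lower, with a median log2 change of -0.29 against -0.05 over all genes. These are 1.52% and 4.38% of the class, against 5.64% and 3.53% of all genes. The balance rested on single libraries, with 13 higher and 16 lower without wt 6, 0 and 6 without cre 5, 0 and 5 without cre 9, 3 and 7 without cre 10, 6 and 12 without wt 7, and 13 and 51 without cre 8. The remaining 12959 genes held 756 of the rises and 452 of the falls. Genes at least 2-fold higher in epithelium, a looser bound, with an adjusted p under 0.05 tilted the other way, with 362 higher and 75 lower among 3604. The 9355 genes in neither class gave 394 higher and 377 lower. They include genes that are higher in macrophages by less than 8-fold. With the macrophage bound lowered to 2-fold, 2452 genes of that class were tested, of which 54 were higher and 141 lower. Counts and medians of the gene lists below include macrophage-enriched members. The counts stand against 5.64% higher and 3.53% lower over all genes.

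**Figure D2:**
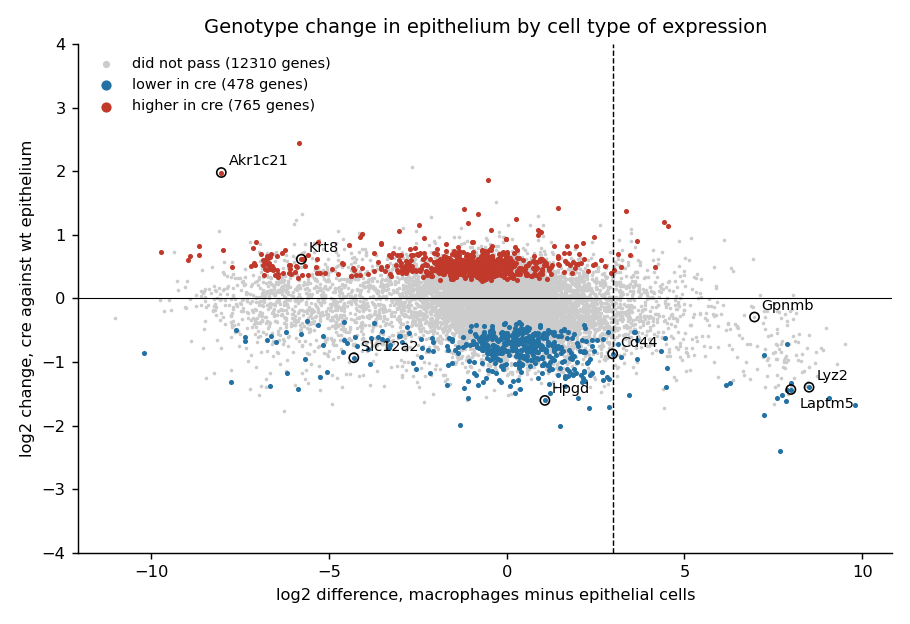
Genotype difference of each gene in epithelium (vertical axis, log2 change of cre against wt) against its difference between cell types (horizontal axis, log2, macrophages minus epithelial cells). Red and blue points passed the test, grey points did not, circled points are named, and the dashed line marks the 8-fold bound for macrophage-enriched genes. To the right of that line blue points prevail, 26 against 9 red.

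Of the genes in that core Akr1c21 rose most. It encodes an aldo-keto reductase that handles steroids and xenobiotics (chromosome 13, 4574075 to 4586541, GRCm38). Akr1c21 stood at 1.23, 3.47, 1.75 and 1.89 CPM in wt and at 7.62, 6.66, 9.90 and 9.00 CPM in cre, in the library order used above. Every cre library lay above every wt library, and Akr1c21 was at 0 CPM in macrophages of both genotypes. It rose by 1.98 on the log2 scale (SE 0.30, edgeR adjusted p = 0.00648). Gsta1, a glutathione transferase that detoxifies reactive compounds, rose from 5.29, 5.87, 7.65 and 7.19 to 13.5, 15.8, 12.1 and 10.8 CPM (log2 change 1.00, SE 0.20, edgeR adjusted p = 0.0106). Aldh1a1, which makes retinoic acid from retinaldehyde, rose by 0.58 (SE 0.10). These 3 belong to a list of 35 tested genes of NRF2, glutathione and xenobiotic metabolism, of which 8 rose, 0 fell and 27 did not pass, with a median log2 change of 0.18. The list had 3 rises without cre 9, 4 without cre 5 and 5 without cre 10. Gstm1, Gpx2, Gstp1, Pgd and Gstm3 were the others called.

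Several abundant genes rose too. Slc25a10, the mitochondrial dicarboxylate carrier, went from 333, 360, 353 and 377 CPM in wt to 713, 495, 653 and 582 CPM in cre (log2 change 0.78, SE 0.11, edgeR adjusted p = 0.00648). Crat, which moves acetyl groups between carnitine and coenzyme A, went from 46.7, 44.5, 48.7 and 44.0 to 79.1, 72.7, 91.7 and 76.8 CPM (0.80, SE 0.11). In both genes the groups were well separated and the wt libraries lay close together. Pmm2, an enzyme of mannose supply for protein glycosylation, rose by 0.62 (SE 0.09), Chmp6, a subunit of the membrane-remodelling ESCRT-III complex, by 0.76 (SE 0.11) and Ssna1, a microtubule-binding protein, by 0.74 (SE 0.11).

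Rises of like or larger size that leaned on single libraries included Foxm1, a transcription factor of mitosis (1.18, SE 0.31), and Sh3bgr (1.16). Ciz1 rose by 1.07 and Tmem45a by 1.05. Cyb5d2 (0.99), Slc27a3 (0.97), Tm6sf2 (0.96) and Cenps (0.94) followed. Sh3bgr lost its call without cre 9 alone (adjusted p = 0.0514), and Tmem45a and Tm6sf2 lost theirs without cre 9 or cre 5. Foxm1 lost its call without cre 5 (log2 change 0.99, adjusted p = 0.12), cre 9, cre 10, wt 2 or wt 4. Slc27a3, Cyb5d2, Ciz1 and Cenps each failed in 5 or 6 of the 8 fits without 1 library.

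Rragd fell most among genes not enriched in macrophages that passed in every fit without 1 library. It encodes a Rag GTPase that signals amino acid supply to mTORC1, and is named here after its values were seen. Rragd stood at 3.81, 1.68, 2.87 and 2.12 CPM in wt and at 0.659, 0.512, 0.673 and 0.700 CPM in cre, low in every library but without overlap (log2 change -2.0, SE 0.39, edgeR adjusted p = 0.00978). In macrophages its mean went the other way, from 1.19 CPM in wt to 9.38 CPM in cre.

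Among genes with a mean of 5 CPM or more the deepest fall outside the macrophage-enriched class was in Hpgd, the dehydrogenase that inactivates prostaglandins (chromosome 8, 56294585 to 56321043). It stood at 27.9, 43.6, 47.6 and 71.6 CPM in wt and at 11.01, 16.8, 16.9 and 18.1 CPM in cre, with no overlap and a wide spread among wt libraries. Hpgd fell by 1.6 (SE 0.25, edgeR adjusted p = 0.00701). Hpgd is 1 of the 5 genes that passed in males alone, at -1.78 (edgeR adjusted p = 0.0263), and 1 of the 3 that passed with the mitochondrial share in the model. Epithelial Hpgd stood at 55.1% of its macrophage level in wt and 41.2% in cre, against a median of 0.716% and 0.277% for the tested macrophage markers. The share of Hpgd fell less than its epithelial level, so its mean macrophage level was lower in cre too. The part of carry-over in this fall was not tested. Of 17 tested prostaglandin and leukotriene genes, Hpgd fell, the prostaglandin reductase gene Cbr1 (0.42) and the prostaglandin E synthase gene Ptges2 (0.45) rose, and 14 did not pass. Cbr1 and Ptges2 lost their calls without cre 5, cre 9, cre 10 or wt 4, and Cbr1 also without wt 2.

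Ppp3r1, a regulatory subunit of the phosphatase calcineurin, went from 17.8, 24.9, 38.5 and 41.97 CPM in wt to 8.76, 9.61, 9.61 and 13.7 CPM in cre (log2 change -1.56, SE 0.25, edgeR adjusted p = 0.00701) and passed in males alone at -1.87. C1galt1, which builds the core of mucin-type sugar chains, went from 21.6, 17.5, 36.2 and 19.4 to 9.88, 10.2, 8.74 and 12.8 CPM (-1.18, SE 0.22). Gmfb (-1.13, SE 0.16), Cltc, the clathrin heavy chain (-0.75, SE 0.12), and Ddx3x, an RNA helicase (-0.80, SE 0.13), also fell in every fit without 1 library. Ddx3x and the histone demethylase gene Kdm6a (-1.2, SE 0.24) lie on the X chromosome and are known to escape its inactivation, and the groups differed in their number of females. In males, Kdm6a stood at 8.12 and 8.96 CPM in wt and at 4.23, 4.32 and 5.10 CPM in cre. With sex in the model the changes were -1.03 for Kdm6a (edgeR adjusted p = 0.0105) and -0.77 for Ddx3x (edgeR adjusted p = 0.00727). Kdm6a lost its call without cre 9 (adjusted p = 0.0523), as Miga1, a mitochondrial fusion factor (-1.40, SE 0.30), did without cre 5 (adjusted p = 0.0571). Nudt12 (-1.23) and Clic5 (-1.17) fell in the full fit but failed in 5 and 7 of the 8 fits without 1 library.

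**Figure D3:**
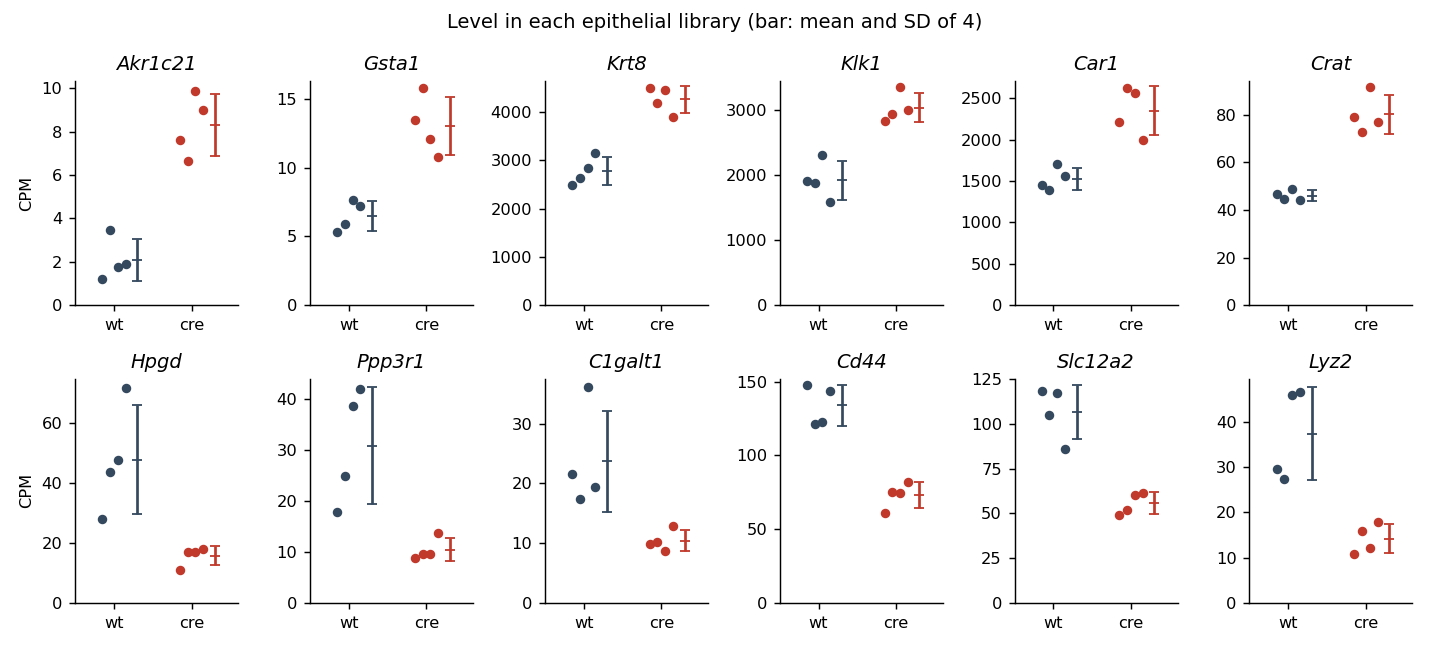
CPM in each epithelial library for 6 genes that were higher and 6 that were lower in cre, with libraries in the order of their mouse number and a bar for the mean and SD of 4. The wt and cre points do not overlap in any of the 12 panels, and Lyz2, at the lower right, is the macrophage-enriched gene among them.

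Genes of crypt-base stem cells and Wnt targets leaned low. Of 22 tested, 0 rose and 3 fell (13.6%, against 3.53% of all genes). The median log2 change was -0.27, against -0.05 over all genes. A negative value was held by 18 of the 22, and by 7478 of all 13553 genes. With the GC and length trend removed the median was -0.15, against -0.012 over all genes, and 2 fell. The list had 2 falls without cre 9, 5 without cre 8 or wt 6 and 6 without wt 7. Cd44, a hyaluronan receptor and the antigen of the sort gate (chromosome 2, 102811141 to 102901665), stood at 148, 122, 122 and 144 CPM in wt and at 61.2, 75.3, 74.3 and 81.9 CPM in cre. The groups did not overlap, and Cd44 fell by 0.87 (SE 0.12, edgeR adjusted p = 0.00648). Because cells were gated on CD44 protein, the mRNA is not a free readout of the tissue, and whether gates were set alike is not given in the labels. Cd44 lies just under the bound for macrophage-enriched genes, 2.98 log2 units higher in macrophages, and its epithelial level was 15.6% of the macrophage level in wt and 10.3% in cre. Slc12a2, a chloride importer of crypt-base cells, went from 118, 105, 117 and 85.8 to 48.9, 52.0, 60.3 and 61.6 CPM (-0.93, SE 0.13). It is 4.30 log2 units lower in macrophages. Rgmb, a coreceptor of bone morphogenetic proteins, fell by 0.77 (SE 0.16) and lost its call without cre 9 (adjusted p = 0.0569).

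The best known stem cell gene, Lgr5, did not pass. It stood at 54.6, 45.9, 28.8 and 28.6 CPM in wt and at 25.4, 33.3, 20.4 and 20.5 CPM in cre (log2 value -0.67, SE 0.22, edgeR adjusted p = 0.0698), so that the wt males overlapped the cre libraries. Ascl2 (0.22) and Axin2 (-0.29) did not pass either. Among 31 receptors and ligands of the Wnt, Notch, BMP and EGF pathways 0 rose and 2 fell (6.45%), with a median of -0.37. The median was -0.24 without wt 6 or with the GC and length trend removed, and -0.11 with the ribosomal share or the macrophage sum in the model. The fallers were the BMP receptor genes Bmpr1a (-0.68, SE 0.18) and Bmpr2 (-1.2, SE 0.36), and both lost their calls without cre 5, cre 9, cre 10, wt 2 or wt 4, Bmpr2 also without wt 6.

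Lists of differentiated lineages held few calls. Of 25 goblet cell and mucus genes 3 rose and 0 fell (median 0.08): Klk1, a kallikrein protease, Ern2, the stress sensor particular to mucus cells, and Agr2, which folds mucins. Klk1 went from 1905, 1887, 2316 and 1582 CPM in wt to 2838, 2946, 3360 and 3010 CPM in cre (log2 change 0.66, SE 0.11, edgeR adjusted p = 0.00701), with no overlap. Ern2 (0.52) lost its call without cre 9, and Agr2 (0.52) without cre 9 or cre 5, while Muc2 did not pass (-0.06). The goblet list had 1 rise without cre 9, 6 without wt 6, and 10 with a median of 0.37 without both cre 8 and wt 6. Of 34 colonocyte and surface genes 3 rose and 1 fell (8.82% and 2.94%, near the shares of all genes), and the median of -0.12 turned to 0.12 without wt 6 and to 0.17 with the ribosomal share in the model. Car1, a carbonic anhydrase of absorptive cells, went from 1450, 1395, 1702 and 1560 to 2219, 2622, 2564 and 2001 CPM (0.62, SE 0.10, edgeR adjusted p = 0.00701). It was 1 of the 3 genes that passed with the ribosomal share in the model. Fabp2 (0.37) and Selenbp1 (0.40) rose and the chloride channel gene Cftr fell (-0.67). The list had 1 rise without cre 5, cre 9, cre 10, wt 2 or wt 4 and 7 without wt 6.

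Rare secretory lineages held few calls. Of 19 enteroendocrine genes 1 fell (5.26%, against 3.53% of all genes), Neurod1, a transcription factor of hormone cells (-1.31, SE 0.32). A negative value was held by 16 of the 19 (median -0.30), and by 7478 of all 13553 genes. The median was -0.10 without wt 6, -0.18 without cre 9, -0.04 with the ribosomal share in the model and -0.05 with the macrophage sum. Neurod1 stood at 10.6, 6.46, 19.6 and 9.55 CPM in wt and 5.84, 5.77, 3.46 and 3.4 CPM in cre, and lost its call without cre 5, cre 9 or cre 10. Chromogranin B, Chgb, did not pass in the full fit (-0.89, edgeR adjusted p = 0.0624) but passed in males alone (-1.35, edgeR adjusted p = 0.0437). Of 8 tuft cell genes 1 fell (12.5%, against 3.53% of all genes), and 4 of the 8 are macrophage-enriched. The faller was the kinase gene Dclk1 (-1.17, SE 0.28), which lost its call without cre 9, cre 10 or wt 2. Of 20 pan-epithelial genes the keratins Krt8 (0.62, SE 0.10) and Krt18 (0.42, SE 0.09) and the galectin gene Lgals4 (0.47, SE 0.10) rose. The cadherin gene Cdh1 fell (-0.36, SE 0.10), and 16 did not pass, Epcam and Vil1 among them. Krt8 passed in each fit without 1 library, Krt18 and Lgals4 not without cre 5 or cre 9, and Cdh1 not without cre 5, cre 9, cre 10, wt 2, wt 4 or wt 7. The pseudogene Krt8-ps also rose (0.62, SE 0.09), and it may share reads with Krt8.

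Cell cycle genes went both ways. Among 32 mitosis genes Birc5 (0.63), Kif2c (0.70) and Foxm1 rose (9.38%) while Ect2 (-0.80) and Top2a (-0.58) fell (6.25%). Among 32 genes of DNA replication Tyms rose (0.47) and Pola1 fell (-0.57), 3.12% each. Over all genes 5.64% rose and 3.53% fell. No call in either list held without cre 9, and without cre 5 Ect2 alone held. Mki67, the proliferation marker, did not pass (-0.26).

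Many genes of energy metabolism rose. Of 19 glycolytic genes 11 rose and 0 fell, with a median log2 change of 0.46. Tpi1, triosephosphate isomerase, went from 938, 976, 928 and 887 CPM in wt to 1540, 1252, 1456 and 1381 CPM in cre (log2 change 0.59, SE 0.09, edgeR adjusted p = 0.00648). Pgam1 (0.57) was the other glycolytic gene called in every fit without 1 library. Eno1 (0.54), Gapdh (0.47), Pkm (0.51) and the lactate dehydrogenase gene Ldha (0.46) also rose, whereas the glucose transporter gene Slc2a1 (0.24) and the hexokinase gene Hk2 (-0.80) did not pass. The list had 2 rises without cre 9, 5 without cre 5 and 7 without cre 10, and its median stayed between 0.40 and 0.51 over the 8 fits. With the ribosomal share in the model the median was 0.30 and no member passed. Tpi1, Gapdh, Eno1 and Pgam1 have many processed pseudogenes, with which reads may be shared.

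Nuclear genes of the respiratory chain held mostly rises among their calls, although most members did not pass. Of 36 complex I genes 12 rose and 0 fell (median 0.28), and of 38 genes of complexes II to V 11 rose and Cox7c fell (median 0.22). Cox7c lost its call without cre 5, cre 9, cre 10, wt 4, wt 6 or wt 7. Ndufb9, a complex I subunit, went from 294, 307, 279 and 295 CPM in wt to 466, 382, 438 and 394 CPM in cre (log2 change 0.52, SE 0.09, edgeR adjusted p = 0.00775). The ATP synthase subunit gene Atp5a1 (0.48, SE 0.09) and the cytochrome oxidase subunit gene Cox5a (0.50, SE 0.09) also rose in every fit without 1 library. Of 56 mitochondrial ribosomal protein genes 16 rose and 0 fell (median 0.24), with Mrpl28 (0.70), Mrpl12 (0.68) and Mrps7 (0.59) in the core. Without cre 9 the 3 lists had 2, 2 and 3 rises, and without cre 5 they had 2, 4 and 4. Without cre 10 the ribosomal list had 7 and without wt 7 it had 9, while the 3 lists had 17, 13 and 22 without both cre 8 and wt 6. Complexes II to V had 6 without wt 2 or wt 4.

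By contrast, 9 of 11 tested genes encoded in mitochondrial DNA fell and 0 rose, with a median log2 change of -0.78. mt-Nd6, a complex I subunit (chromosome M, 13552 to 14070), went from 587, 575, 590 and 384 CPM in wt to 284, 252, 297 and 284 CPM in cre (log2 change -0.93, SE 0.13, edgeR adjusted p = 0.00648). mt-Nd5 (-0.90, SE 0.14), mt-Co1 (-0.85, SE 0.14) and mt-Cytb (-0.74, SE 0.14) fell in every fit without 1 library, and mt-Cytb passed with the ribosomal share in the model (-0.99, edgeR adjusted p = 0.0328). The 12S ribosomal RNA gene mt-Rnr1 (-1.32, SE 0.25) and the 16S gene mt-Rnr2 (-0.78, SE 0.17) lost their calls without cre 5 or cre 9. Without either of these libraries 5 of the 11 fell. The library wt 7 lay lowest among wt for mt-Nd6, and without it 10 of the 11 fell. mt-Atp6, mt-Atp8 and mt-Co2 are listed at 0 in all 8 libraries although cells with mitochondria transcribe them. Nuclear copies of mitochondrial DNA share reads with these genes, so levels within this group are uncertain.

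**Figure D4:**
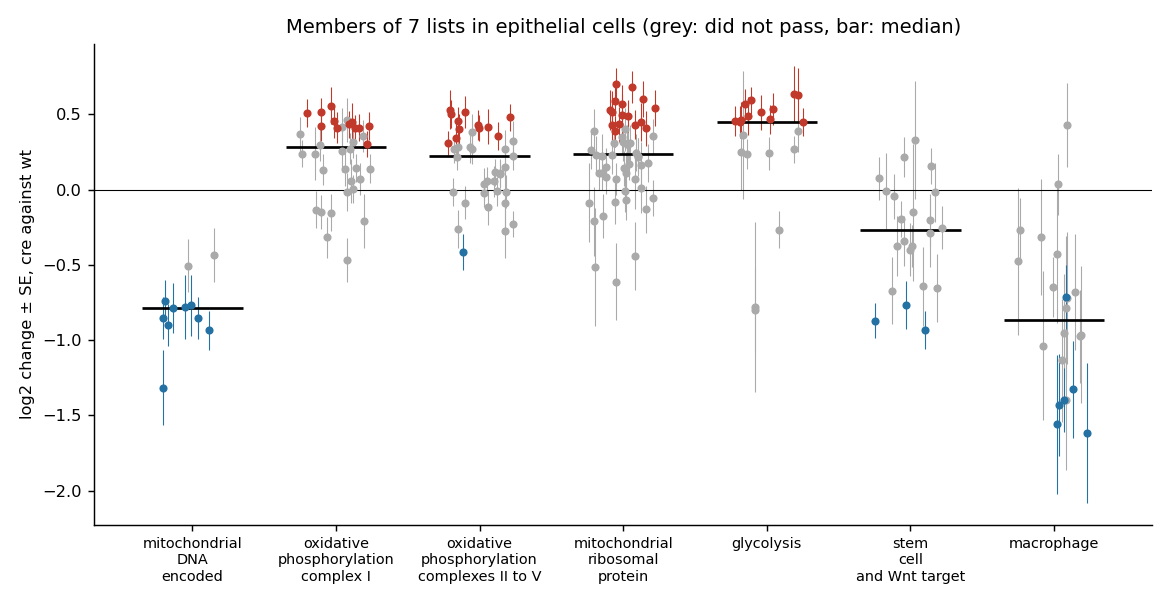
Log2 change of cre against wt epithelium (vertical axis, with SE) for each tested member of 7 gene lists. Red and blue members passed the test, grey members did not, and black bars are medians. Genes encoded in mitochondrial DNA lie below 0, with a median of -0.78, while the nuclear respiratory chain, mitochondrial ribosomal protein and glycolysis lists have medians of 0.22 to 0.46.

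Neighbouring pathways gave smaller counts. Of 22 genes of the tricarboxylic acid cycle and pyruvate entry Idh2 (0.49), Pdhb (0.42) and Idh3g (0.37) rose, and of 25 genes of fatty acid oxidation and ketogenesis 5 rose, led by the carnitine transferase gene Cpt2 (0.58). Without cre 9 these lists had 1 and 0 rises. The oxidation list also varied from 1 rise without cre 5 to 8 without cre 8, with 2 without cre 10 or wt 4 and 3 without wt 2. None of 26 sterol and fatty acid synthesis genes passed, with Mvd at 0.67 (edgeR adjusted p = 0.0569) the nearest. Of 31 proteasome genes 5 rose (16.1%), led by Psmc3 (0.48), and 0 passed without cre 5 or cre 9 and 3 without cre 10 or wt 2. Cytosolic ribosomal protein genes split, with 6 higher and 4 lower of 58 and a median of 0.00: Rpl14 rose (0.41, SE 0.08) and Rps28 fell (-0.68, SE 0.13), and these 2 were the calls left without cre 5 or cre 9. Without wt 2 the list had 2 higher and 5 lower. With the GC and length trend removed it had 0 higher and 8 lower (median -0.10), and Rpl14 stood at 0.23 (edgeR adjusted p = 0.136).

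Genes of amino acid supply leaned high. Of 20 transfer RNA synthetase genes 6 rose and 0 fell (median 0.16), and 13 had a positive value and 7 a negative one. Mars1, the methionine enzyme, went from 131, 142, 104 and 120 CPM in wt to 219, 184, 208 and 193 CPM in cre (log2 change 0.69, SE 0.11, edgeR adjusted p = 0.00653), and was the one member called without cre 5 and without cre 9. Without cre 10 the list had 3 rises. Of 22 ATF4 target and amino acid supply genes 18 had a positive value, as had 6075 of all 13553 genes, and 2 rose (median 0.33). These were Slc3a2, the heavy chain of amino acid exchangers (0.45, SE 0.10), and Chac1, which degrades glutathione. Slc3a2 is among the 3 members of the list that are macrophage-enriched. Chac1 stood at 1.48, 0.958, 1.59 and 1.18 CPM in wt and at 3.29, 4.87, 3.65 and 2.20 CPM in cre (log2 change 1.42, SE 0.34, edgeR adjusted p = 0.0215). Both lost their calls without cre 5 or cre 9, and Chac1 also without wt 4. Atf4 itself did not pass (0.12). With the ribosomal share or the macrophage sum in the model, the ATF4 list had a median of 0.20 and 0 calls.

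Promoters of these lists and of lysosomal genes were searched, and those of the other lists were not. RefSeq sequences (GRCm38.p6) from 250 bases before to 50 after the gene start matched 9187 of the genes tested. TGATGCAA, a core of the composite C/EBP-ATF site, was sought on both strands and occurred in 66 of them (0.718%). It was found in 4 of 21 promoters of the ATF4 list (Chac1, Nupr1, Slc7a11 and Vldlr) and 4 of 13 of the synthetase list, Iars, Tars and Yars among them. The palindrome TCACGTGA, which TFEB and related lysosomal regulators can bind, occurred in 207 (2.25%) and in 6 of 26 promoters of a lysosome list (Atp6v0d1, Atp6v1a, Ctsa, Ctsd, Gla and Mcoln1). The ATF4 and lysosome lists hold genes of the pathways that these regulators serve, so their shares of sites say nothing about genotype. Neither motif contains the other. Shown, as examples chosen after their values were seen, are sites from each list, in 30 bases on the gene's strand with the motif, or its reverse complement, in capitals.
Chac1, chr2:119351038-119351067, plus strand: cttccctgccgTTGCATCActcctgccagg
Nupr1, chr7:126625562-126625591, minus strand: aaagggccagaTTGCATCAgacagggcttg
Yars, chr4:129189895-129189924, plus strand: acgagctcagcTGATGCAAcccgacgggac
Ctsd, chr7:142387908-142387937, minus strand: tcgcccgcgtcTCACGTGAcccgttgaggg
Ctsa, first site, chr2:164833749-164833778, plus strand: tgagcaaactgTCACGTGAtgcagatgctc
Ctsa, second site, chr2:164833766-164833795, plus strand: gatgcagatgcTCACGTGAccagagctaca
Of the 13 genes named with a site Chac1 and Ctsd rose and 11 did not pass. Nupr1 (0.66, edgeR adjusted p = 0.0612), Yars (0.43, adjusted p = 0.0658) and Ctsa (0.26, adjusted p = 0.117) were among the latter. So were Slc7a11 (0.22), Gla (0.35) and Mcoln1 (0.24), and, with negative values, Vldlr (-0.19), Iars (-0.20), Tars (-0.06), Atp6v0d1 (-0.11) and Atp6v1a (-0.20). Over all called genes the shares were near or below those of genes tested. TGATGCAA occurred in 4 of 560 promoters of higher genes (0.714%) and 2 of 345 of lower genes (0.58%), and TCACGTGA in 11 (1.96%) and 5 (1.45%). These matches describe letters in a window and do not show binding.

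Other stress and defence lists held few calls. Of 24 genes of the unfolded protein response Ern2, Creld2 (0.50) and Pdia6 (0.28) rose (12.5%) and Atf6 fell (-0.67, 4.17% of the list). Over all genes 5.64% rose and 3.53% fell. Pdia6 and Atf6 each lost their call in 7 of the 8 fits without 1 library and Creld2 in 5. The list had 0 calls without cre 9 and 1 rise without cre 5, cre 10, wt 4 or wt 7. Of 25 heat shock and immediate early genes, which respond to tissue dissociation, Fosb alone passed (-0.82) and lost its call without cre 5, cre 9, cre 10, wt 2, wt 6 or wt 7. Of these 25, 9 are macrophage-enriched. The antimicrobial lectin gene Reg3g rose from 70.8, 104, 128 and 86.4 to 163, 175, 191 and 131 CPM (0.76, SE 0.16, edgeR adjusted p = 0.0138), 1 of 22 genes of its list, and lost its call without cre 5 or cre 9. Macrophage-enriched members make up 5 of those 22. Of 21 interferon and MHC genes, 8 of them macrophage-enriched, Oas1a rose (0.48) and B2m, which is macrophage-enriched, fell (-0.54). Oas1a lost its call in 7 of the 8 fits, that without wt 6 being the exception, and B2m lost its call without cre 5 or cre 9.

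**Figure D5:**
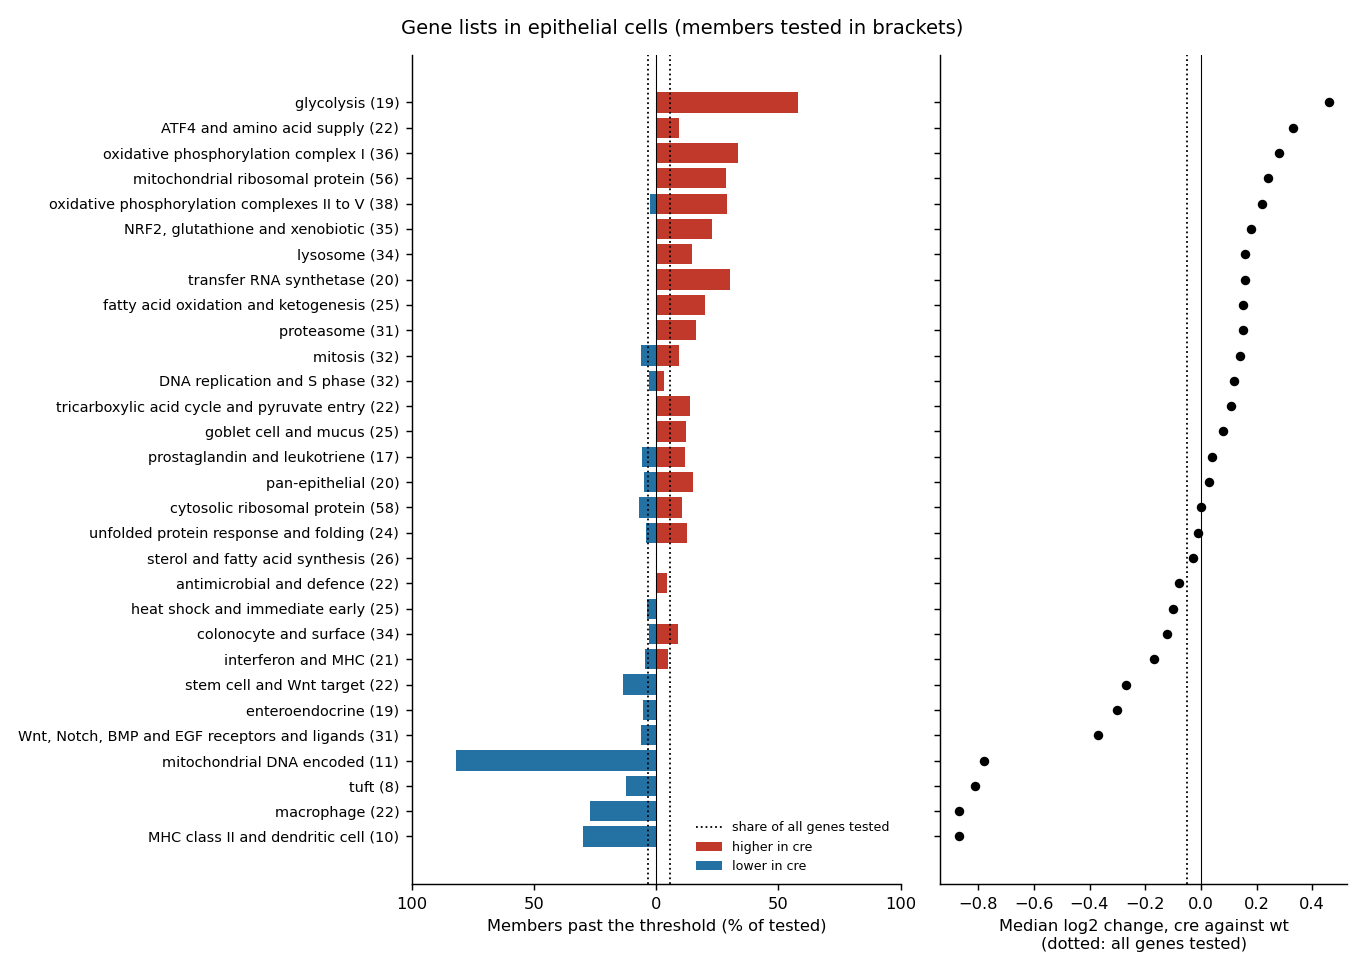
Share of tested members past the threshold in each gene list with 8 or more tested members (left, %, higher in red and lower in blue, number tested in brackets) and the median log2 change of the list (right). Dotted lines give the same for all genes tested, 5.64% higher and 3.53% lower. Glycolysis has the highest share of rises, 11 of 19 members, and genes encoded in mitochondrial DNA the highest share of falls, 9 of 11.

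Of the macrophage-enriched genes set apart above, 559 of 594 did not pass. Lyz2, the lysozyme gene that carries the recombinase, went from 29.6, 27.4, 45.9 and 46.7 CPM in wt to 10.8, 15.9, 12.2 and 17.9 CPM in cre (log2 change -1.40, SE 0.21, edgeR adjusted p = 0.00648). The groups did not overlap. Lyz2 passed in males alone (-1.59, edgeR adjusted p = 0.0437) and with the mitochondrial share in the model (-1.99, edgeR adjusted p = 0.028). It did not pass with the summed macrophage markers in the model (-1.0, edgeR adjusted p = 0.0601). Lyz2 counts toward that sum, so its value there is no separate test. Of 22 tested macrophage markers 6 fell (Lyz2, Laptm5, Cybb, Spi1, Ptprc and C1qa) and 0 rose, with a median of -0.87. The falls are 27.3% of the markers tested, against 3.53% of all genes. The summed level of the macrophage list ranged from 256 to 508 CPM in wt and from 219 to 361 CPM in cre, so the sums overlapped. The list had 1 fall without cre 5, cre 9, cre 10 or wt 7, 3 and 1 rise without wt 6, and 10 falls without cre 8. Of 10 genes of MHC class II and dendritic cells H2-Aa (-1.43, SE 0.34), Itgax and H2-DMa fell, and 0 passed without cre 5, cre 9, cre 10, wt 6 or wt 7. T cell, B cell, granulocyte and endothelial lists, with 1 to 4 tested members each, gave 0 calls, and the stromal collagen gene Col3a1 fell (-1.67, SE 0.46), a call lost without cre 5, cre 9, cre 10, wt 2 or wt 6. Igha, an antibody gene of plasma cells, stood at 13.15, 23.6, 97.3 and 75.5 CPM in wt and at 25.5, 76.0, 26.3 and 21.4 CPM in cre, with overlap. The part of other cell types in these results was not tested.

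The 26 fallers and the 9 risers of this class differed in how far they stood from macrophage level. The fallers had a median epithelial level of 1.62% of that in macrophages in wt and 0.694% in cre, and 15 of them were at least 32-fold higher in macrophages. The risers had medians of 6.60% and 12.1%, and none was that far apart. Among the risers were Gsn, the actin-severing protein gelsolin (0.49, SE 0.12), and Slc3a2. Gsn lost its call without cre 5, cre 9, cre 10, wt 2, wt 4 or wt 7. At the higher bound 183 genes were tested, of which 0 rose and 15 fell. Mbnl1, a splicing regulator, Tmx4, Pla2g7, Tgfbr1 and Lyz2 were the macrophage-enriched genes that passed in every fit without 1 library. Mbnl1 went from 49.3, 53.4, 42.9 and 58.0 to 26.6, 28.2, 25.3 and 27.6 CPM (-0.92, SE 0.13).

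Transcripts higher in cre than in wt macrophages were followed into the epithelium as tracers. In macrophages 133 of 14087 genes passed (0.944%), 103 of them higher in cre (0.731%). The 3 cre macrophage libraries came from males and 2 of the 3 wt libraries from females, and with sex in the model 2 genes passed. The 6 genes described singly were the largest rises among those with 100 CPM or more in cre macrophages. Gpnmb, a lysosomal membrane glycoprotein, went there from 14 to 2570 CPM, yet in epithelium it had 8, 23, 7 and 20 counts in wt and 5, 21, 18 and 12 counts in cre. The epithelial groups overlapped (log2 value -0.29, edgeR adjusted p = 0.738). Atp6v0d2, a proton pump subunit, went from 1.95 to 153 CPM in macrophages and had 2 counts or fewer in each epithelial library. Fabp5, a fatty acid carrier (0.29, adjusted p = 0.333), and Gdf15, a stress cytokine (0.63, adjusted p = 0.165), did not pass in epithelium, and Npl was too low there to test.

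Ctsd, the lysosomal protease cathepsin D, was the one of these 6 that also rose in epithelium. In epithelium it went from 273, 244, 226 and 272 CPM in wt to 378, 331, 412 and 336 CPM in cre (log2 change 0.52, SE 0.10, edgeR adjusted p = 0.00989), and in macrophages from 565 to 3950 CPM. It lost its epithelial call without cre 9 (adjusted p = 0.0514). Of the 103 genes higher in cre macrophages 73 were tested in epithelium, where 16 rose (21.9%, against 5.64% of all genes) and 1 fell, with a median of 0.18. Of the 16, 7 carry pseudogene or provisional names, and copies of Atp6v0c and Ftl1 are among them, so they are not 16 separate signals. Of the 30 that were lower there, 10 were tested and 0 passed. Of 34 lysosomal genes 5 rose in epithelium: Ctsd, Ctsb (0.39), Gaa (0.48) and the proton pump genes Atp6v0c (0.53) and Atp6ap1 (0.41), with 0 calls without cre 9, 2 rises without cre 5, 9 without wt 6 and 11 rises without both cre 8 and wt 6.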

How the data were processed

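Mouse colon epithelial cells (8 libraries) and macrophages (6) had been sorted, and complementary DNA made with Smart-seq2 and Nextera XT, which keep no strand, and read as single 50 bp reads, per the labels' protocols. The deposited counts per gene and the deposited FPKM values (counts per gene length and depth) were made by the authors on GRCm38 (mm10). Per the submitters' processing notes STAR 2.5.2b, Picard 2.19.2 and DESeq2 1.24.0 were used. No source used here gives their roles, the counting program or its strand setting, so reads of overlapping, antisense or near-identical genes may be shared. The series text speaks of 3 control mice, while 4 wt epithelial libraries carry different mouse numbers. They were treated as 4 mice, and p-values measure the spread between libraries.

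Epithelial counts (4 against 4) were fitted with edgeR 4.0.16 in R 4.3.3 (quasi-likelihood test, robust, TMM scaling, genes kept by filterByExpr with a minimum count of 10). P-values were adjusted by Benjamini-Hochberg over all genes tested, and SE was derived from the log2 change and the F statistic. Macrophages (3 against 3) and the cell types (14 libraries) were fitted likewise. Tested on simulated counts for the 13553 epithelial genes, the fit called 65% of genes given a 2-fold change and 99% of those given 4-fold. Alternatives used DESeq2 1.42.0, limma 3.58.1, FPKM, other filters, covariates and left-out libraries. GC content and length came from the longest transcript.

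Genes and lists were chosen with earlier results of these data known. Named were Tsc2, Lyz2, the 10 largest rises and falls outside the macrophage-enriched class at 5 CPM or more, and the 6 rises and 6 falls of smallest p at 50 CPM or more. The rule further took the 8 macrophage-enriched calls highest in macrophages, the 10 smallest p among genes called in every fit, 3 members of each list and 6 tracers. It left out sex-linked genes, receptor segments and provisional names. Other genes, among them X-linked genes, promoter genes, further list members, Rragd, Tmx4, Pla2g7 and Tgfbr1, were named after their values were seen. Results of 1 gene that the rule takes and 1 promoter site are not reported here.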

Additional observations from a re-analysis of the deposited data

Results flagged for a closer look

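A gap test was run on 362 groups of 4 libraries, which divides the distance of the highest or lowest library from its neighbour by the group's whole range and sets it against Dixon's critical value at the 95% level. Chance gives a gap past that value in about 1 in 20 groups, and 14 were found, fewer than that rate gives over 362 groups. Library cre 8 was the highest of the cre libraries for the share of ribosomal RNA (gap 0.833, 26.7% against 7.38 to 10.6%), Nudt12 (0.855), Cybb (0.871), Itgax (0.879), Gzma (0.834), Igha (0.91) and mt-Rnr2 (0.871). For mt-Rnr2 it stood at 96800 CPM, against 66500 to 70400 CPM in the other cre libraries. Library wt 7 was the lowest wt library for mt-Rnr2 (0.897) and for mt-Nd6 (0.926), and wt 2 was the highest for Cpt2 (0.93) and Mrps7 (0.95). Library cre 5 was the highest cre library for the hormone granule gene Chga (0.891, 203 CPM against 105 to 116 CPM). Library cre 10 was the lowest for Hk2 (0.935) and cre 9 for Atf6 (0.898). Whether anything beyond chance sets these libraries apart was not tested.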

How the results depend on the processing

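The count of genes changed in epithelium, 1243 in all and 1208 with macrophage-enriched genes kept apart, moved with most choices. It was 1956 and 1906 with DESeq2, 2299 and 2231 with limma voom and quality weights, 629 and 612 with the GC and length trend removed, and 2359 and 2282 without both cre 8 and wt 6. It was 5 and 3 in males alone, 3 and 3 with the ribosomal share in the model, 3 and 2 with the mitochondrial share and 55 and 52 with the macrophage sum. It was 405 on FPKM without a filter and 19 in a fit of all 14 libraries. Without 1 library it ranged from 178 to 1947, and from 173 to 1883 with macrophage-enriched genes apart. The cause was not tested. The gene mt-Nd4 counts toward the mitochondrial share, so its value with that share in the model is no separate test. With the share in the model mt-Nd4 turned from -0.77 to 0.04 (edgeR adjusted p = 0.934).

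Macrophage-enriched genes numbered 2582, or 4861 at a log2 difference of 1, 1689 at 5 and 1664 with a minimum count of 50. With a replicate block on the mouse number there were 2556, of which 2525 were shared. No paired analysis was possible because the cre and wt epithelial libraries share no mouse number. Genes changed in macrophages numbered 133, or 498 with DESeq2, 2 with sex in the model and 29 to 87 without 1 library.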
